A study of Mus musculus with 16 samples.

Results

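The regions described here are the wide succinyllysine regions that lie on H3K4me3 in immortalized mouse embryonic fibroblasts. They were chosen from the list of regions found with an antibody to succinyllysine, a lysine that carries a succinyl group, by 3 criteria: a width over 1000 bp, at least 1 bp shared with a region of the H3K4me3 list, and no base shared with a region of the H3K27me3 list. The choice gave 901 of the 10888 succinyllysine regions. Width and overlap with the histone marks therefore chose the regions and are given as a description.

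Chromatin immunoprecipitation with sequencing (ChIP-seq) was done in 2 fibroblast lines, R26M2rtTA/+;TetOcre;Sdhcfl/fl and R26M2rtTA/+;TetOcre;Sdhcfl/wt. Both carried a doxycycline-responsive transactivator at the Rosa26 locus and a Cre recombinase under Tet control, and both were given 1 µg/mL doxycycline and collected at day 16. They differed in Sdhc, with 2 floxed copies in the experimental line and 1 floxed and 1 wild-type copy in the control line. Each line gave 2 samples per antibody (succinyllysine, H3K4me3 and H3K27me3) and 2 input samples, 16 in all. The sources used here do not say whether each line is a single clone or how many embryos it came from.

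The deposited data are 1 list of start and end positions per antibody, with no height and no value per sample, so no region has a replicate error and the lines cannot be compared. A region may be marked strongly in some of the cells or weakly in all of them, and a list of positions cannot tell these apart. Whether Cre had removed Sdhc cannot be seen in these lists, and read depth is unknown. Intervals below are exact Clopper-Pearson 95% intervals that cover counting error only. Regions are not replicates, so no test was made of any difference between sets of regions.

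The product of Sdhc anchors succinate dehydrogenase in the inner mitochondrial membrane, and that enzyme turns succinate into fumarate in the tricarboxylic acid cycle. Succinyl groups come from succinyl-CoA, the metabolite upstream of succinate in that cycle, and attach to lysines of many proteins, histones among them. H3K4me3, trimethylated lysine 4 of histone H3, marks the nucleosomes around active and poised gene starts and is usually broader on the transcribed side. H3K27me3 is the mark of Polycomb repression. The start of an active gene itself is often depleted of nucleosomes, with well-positioned nucleosomes on each side.

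Promoter sequences of 6 genes are shown first because they mark the 3 ways in which these regions met a gene start: ending short of it, running over it, and beginning beyond it. Each is the 250 bases before the start, read 5′ to 3′ towards the gene (RefSeq, GRCm38.p6, the build also called mm10), and capitals mark the bases that lie in the wide succinyllysine region. Fos, Hoxa11 and Sqstm1 had a region that ended before the start. At S100a4 the region covered all of the printed bases and the start, and at Prrx1 it covered the last 50 bases and the start. At Cdkn1b it began inside the gene, so no base is in capitals.
Fos, chr12:85473640-85473889, plus strand: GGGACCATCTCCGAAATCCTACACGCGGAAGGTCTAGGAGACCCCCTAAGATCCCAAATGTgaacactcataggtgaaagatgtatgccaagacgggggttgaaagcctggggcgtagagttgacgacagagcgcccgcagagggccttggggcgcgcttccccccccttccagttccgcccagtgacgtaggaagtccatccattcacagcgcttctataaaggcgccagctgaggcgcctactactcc
Hoxa11, chr6:52245811-52246060, minus strand: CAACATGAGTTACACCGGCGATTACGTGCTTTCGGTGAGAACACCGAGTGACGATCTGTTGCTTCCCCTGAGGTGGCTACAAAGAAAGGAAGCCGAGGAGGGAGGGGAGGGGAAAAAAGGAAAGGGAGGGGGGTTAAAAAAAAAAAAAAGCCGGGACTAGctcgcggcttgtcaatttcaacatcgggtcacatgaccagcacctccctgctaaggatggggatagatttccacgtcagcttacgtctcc
Sqstm1, chr11:50210821-50211070, minus strand: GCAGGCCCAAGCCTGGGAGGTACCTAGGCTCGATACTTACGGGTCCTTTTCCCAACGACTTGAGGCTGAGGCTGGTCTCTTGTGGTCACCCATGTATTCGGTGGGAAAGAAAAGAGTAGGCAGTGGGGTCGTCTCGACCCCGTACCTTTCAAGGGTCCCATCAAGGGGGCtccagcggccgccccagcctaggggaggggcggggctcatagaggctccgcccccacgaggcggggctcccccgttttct
S100a4, chr3:90603520-90603769, plus strand: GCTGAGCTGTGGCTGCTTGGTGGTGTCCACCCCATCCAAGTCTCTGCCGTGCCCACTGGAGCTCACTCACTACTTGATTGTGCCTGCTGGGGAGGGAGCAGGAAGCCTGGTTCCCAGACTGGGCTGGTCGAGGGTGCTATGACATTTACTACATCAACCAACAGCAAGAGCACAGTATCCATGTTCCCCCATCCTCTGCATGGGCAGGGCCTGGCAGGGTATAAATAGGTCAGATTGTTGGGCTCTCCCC
Prrx1, chr1:163313651-163313900, minus strand: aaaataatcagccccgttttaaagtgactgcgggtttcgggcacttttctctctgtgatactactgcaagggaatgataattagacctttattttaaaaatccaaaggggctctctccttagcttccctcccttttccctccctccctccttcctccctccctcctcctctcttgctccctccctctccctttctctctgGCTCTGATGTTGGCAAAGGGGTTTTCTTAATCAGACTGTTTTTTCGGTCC
Cdkn1b, chr6:134920151-134920400, plus strand: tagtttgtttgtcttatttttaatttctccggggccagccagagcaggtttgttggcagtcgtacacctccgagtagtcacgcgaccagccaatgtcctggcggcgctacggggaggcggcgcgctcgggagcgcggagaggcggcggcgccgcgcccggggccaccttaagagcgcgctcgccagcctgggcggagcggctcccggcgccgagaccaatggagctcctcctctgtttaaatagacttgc

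The capitals covered 61 of the 250 bases at Fos, 160 at Hoxa11 and 170 at Sqstm1. In each of these the lower-case bases next to the start lay outside the wide region. The capitals do not show narrower succinyllysine regions. TATAAA, the TATA box, was found at Fos outside the wide region and at S100a4 within it. GGGCGG, the GC box bound by Sp1, was found at Fos, Sqstm1 and Cdkn1b. The number of CpG dinucleotides ranged from 2 at S100a4 and 4 at Prrx1 to 28 at Cdkn1b.

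Mature microRNAs are shown for the best-known hairpins inside these regions, with the seed (bases 2 to 8, which pair with target messages) in capitals. They were chosen after the overlaps were seen.
mmu-miR-21a-5p: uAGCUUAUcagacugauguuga
mmu-miR-199a-5p: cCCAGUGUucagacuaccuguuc
mmu-miR-199a-3p: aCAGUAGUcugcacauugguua
mmu-miR-125b-5p: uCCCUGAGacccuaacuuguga
mmu-let-7i-5p: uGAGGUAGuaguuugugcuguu
mmu-miR-196b-5p: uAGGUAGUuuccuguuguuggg
mmu-miR-92b-3p: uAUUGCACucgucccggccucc
mmu-miR-574-3p: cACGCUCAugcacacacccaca

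The 901 regions had a median width of 1700 bp (interquartile range 1300 to 2500 bp) and reached 27800 bp. Just inside the width limit were 104 regions of 1100 bp, of which 73 lay wholly in H3K4me3. Just outside it were 99 regions of 1000 bp that met the other criteria, of which 72 lay wholly in H3K4me3, so the limit cuts through a continuous range. Succinyllysine regions over 1000 bp numbered 1993 in all. Of these, 48 touched both histone marks, 7 touched H3K27me3 alone and 1037 touched neither.

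Most of the marked length lay on H3K4me3, but only about as many regions stayed within H3K4me3 as left it. Of the 1985.1 kb covered by the 901 regions, 1485.8 kb (74.8%) was also H3K4me3. The regions wholly covered by H3K4me3 numbered 476 (52.8%, interval 49.5 to 56.1%). Of the 484 succinyllysine regions of 600 to 1000 bp chosen in the same way, 382 (78.9%) were wholly covered, and 92.4% of their bases were H3K4me3. These 2 sets differ in width by choice, and a wider region passes an end more easily.

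Positions were told apart by the ends of the regions. A region lay inside when both ends were over 200 bp from the ends of its H3K4me3 region, and at an edge when it was contained but came within 200 bp of an end. Inside were 303 regions (33.6%, 30.5 to 36.8%) and at an edge were 165 (18.3%, 15.8 to 21.0%). Spilling out on 1 side were 373 (41.4%, 38.2 to 44.7%) and on both sides 28 (3.11%, 2.07 to 4.46%). The remaining 32 (3.55%, 2.44 to 4.98%) bridged neighbouring H3K4me3 regions, 30 of them touching 2 and 2 touching 3. Of the 600 to 1000 bp regions, 46.7% lay inside, 32.0% at an edge, 20.5% spilled on 1 side, and 4 of 484 spilled on both sides or bridged.

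**Figure D1:**
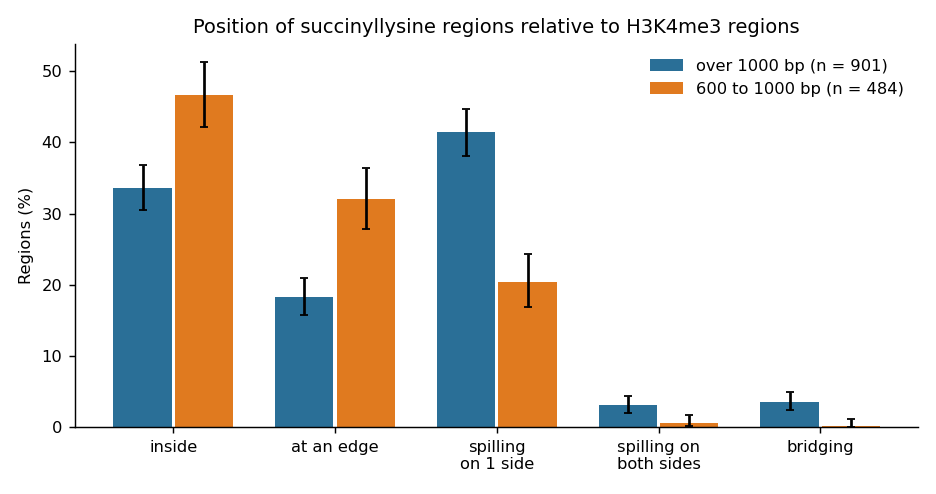
Share of succinyllysine regions (%, bars, with exact 95% intervals as error bars) in each position relative to H3K4me3, for the 901 regions over 1000 bp and the 484 regions of 600 to 1000 bp. Spilling on 1 side is the most frequent position of the wide regions (41.4%), and lying inside is that of the narrower ones (46.7%).

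Position followed the size of the H3K4me3 region. Regions inside had a median width of 1500 bp in H3K4me3 regions of 6200 bp, and covered a median of 26.9% of them. Regions at an edge (1400 bp) lay in H3K4me3 regions of 3600 bp. Regions that spilled on 1 side (1900 bp) touched H3K4me3 regions of 2200 bp, and those that spilled on both sides (3850 bp) lay over H3K4me3 regions of 1350 bp. The definitions account for this in part, since a narrow H3K4me3 region cannot contain a wide region. They do not fix the size for spills on 1 side, and what else sets these medians was not tested.

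The 1-sided spills left H3K4me3 by a median of 700 bp (interquartile range 300 to 1300 bp, highest 6700 bp). Of these 373 regions, 40 passed the end by 100 bp, which is 1 step of the grid on which all regions were placed, and 138 passed it by 1000 bp or more. In 139 more bases lay outside H3K4me3 than inside. Exactly shared ends were found in 76 of the contained regions.

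**Figure D2:**
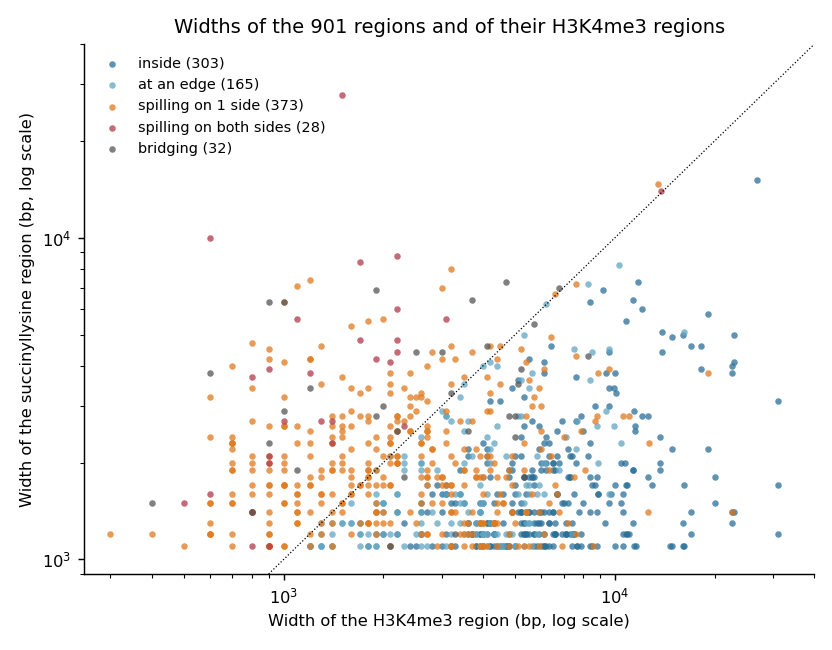
Width of each of the 901 succinyllysine regions against the width of the H3K4me3 region it shares most bases with (bp, both axes logarithmic), coloured by position, with a dotted line at equal widths. Regions inside gather at the right, where H3K4me3 is wide (median 6200 bp), and those spilling on both sides lie at the upper left (median H3K4me3 width 1350 bp).

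The widest H3K4me3 regions carried wide succinyllysine most often. The 901 regions lay on 802 different H3K4me3 regions, of which 719 held 1, 69 held 2, 13 held 3 and 1 held 5. Their median width was 3800 bp taken over the 901 regions, with H3K4me3 regions from 300 bp up included. The median was 3100 bp for all 13663 H3K4me3 regions over 1000 bp and 1100 bp for all 26654 of any width. These medians differ in width limit and in how often a region is counted, so they are not like for like. A wide succinyllysine region was found on 4.60% of H3K4me3 regions of 1100 to 2000 bp (159 of 3457), on 3.76% of those of 2100 to 4000 bp (241 of 6410) and on 6.67% of those of 4100 to 7000 bp (227 of 3403). Of the 393 H3K4me3 regions of 7100 bp or more, 110 had one (28.0%, 23.6 to 32.7%). A longer H3K4me3 region offers more bases to meet, and this was not corrected for.

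The 10 widest regions were of unlike kinds. The widest, 27800 bp (chr2:167755101-167782900), ran far past both ends of an H3K4me3 region of 1500 bp, with 21900 bp outside on the left and 4400 bp on the right. It had no protein-coding gene start, only those of the long noncoding RNA genes Gm14321 and Gm32287. Others that were mostly outside H3K4me3 and without a protein-coding start were 10000 bp overlapping Rusc2 (chr4:43394701-43404700), 8800 bp between genes (chr9:102641301-102650100), 8400 bp at the noncoding Gm32700 (chr1:86432201-86440600), and 7400 bp overlapping Vmp1 (chr11:86587201-86594600). Their H3K4me3 regions were 600, 2200, 1700 and 1200 bp wide.

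The others among the 10 widest had H3K4me3 along more of their length, with 1 exception. At Nfix, a nuclear factor I transcription factor, a region of 15100 bp (chr8:84774701-84789800) lay inside an H3K4me3 region of 26900 bp. At Ugt1a1 and Ugt1a6b, which encode UDP-glucuronosyltransferases, 14000 bp (chr1:88211201-88225200) passed each end of H3K4me3 by 100 bp. The Ugt1a genes share exons, so the region cannot be given to 1 of them. A region of 14700 bp without a gene start (chr4:147517001-147531700) overlapped an H3K4me3 region of 13500 bp, and Cdkn1b had 8200 bp (chr6:134920501-134928700). The exception was the 8000 bp at S100a3 and S100a4 (chr3:90596501-90604500), of which 16.2% was H3K4me3.

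The widest regions of each position add further genes. Inside H3K4me3 were 7300 bp without a gene start (chr4:88931001-88938300), Prrx1 with 6900 bp, and 6400 bp that hold the miR-125b-1 hairpin (chr9:41581201-41587600). At an edge were Tnrc18 with 7200 bp (chr5:142810501-142817700), 6200 bp at the noncoding RNA gene Wincr1 (chr4:89049001-89055200), and 5100 bp overlapping Tbx15, a T-box factor of limb and skin mesenchyme (chr3:99247601-99252700). Sbno2 had 7200 bp that spilled on 1 side (chr10:80099901-80107100). The widest bridging regions were 7300 bp (chr8:84197101-84204400), 7000 bp overlapping Hspg2, which encodes the basement membrane proteoglycan perlecan (chr4:137470101-137477100), 6900 bp (chr8:84980301-84987200), and 6400 bp at Csrp1, a LIM protein of actin filaments (chr1:135727801-135734200).

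Gene starts were near most, but not all, of the wide regions. A protein-coding start was covered by 191 regions (21.2%, 18.6 to 24.0%), and a further 334 (37.1%, 33.9 to 40.3%) came within 1000 bp of one, 525 in all (58.3%, 55.0 to 61.5%). Another 204 (22.6%) lay in gene bodies and 172 (19.1%) between genes. The same measure gave 70.2% (66.0 to 74.3%) for the 600 to 1000 bp regions on H3K4me3, and 7.33% (5.82 to 9.09%) for the 1037 wide regions on neither histone mark. H3K4me3 is itself a mark of gene starts. The contrast between 58.3% and 7.33% was therefore set in part by the choice of regions on or off H3K4me3. Of the 901, 68 had only a long noncoding RNA start within reach and 308 had no start of either kind. Exons, introns and untranslated regions were not told apart, since the gene table used here gives outer ends only.

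A start was near 69.0% of the regions inside H3K4me3 and 63.0% of those at an edge. It was near 50.4% of those that spilled on 1 side and 7 of the 28 that spilled on both. On the X chromosome lay 6 of the 901 regions (0.666%, 0.245 to 1.44%), close to the 0.606% of all succinyllysine regions and under the 2.50% of all H3K4me3 regions.

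Orientation by strand was possible for 406 regions, whose H3K4me3 region held starts of 1 strand only. Of these, 122 (30.0%, 25.6 to 34.8%) lay upstream of the start, 131 (32.3%, 27.7 to 37.1%) ran over it and 153 (37.7%, 33.0 to 42.6%) lay downstream. The upstream regions stopped close to the start: their median end was at -159.5 bp (interquartile range -290 to -85 bp), and 93 of the 122 ended within 300 bp of it. The downstream regions began at a median of 417 bp past the start, 66 of the 153 within 300 bp. These distances are limited by the choice, since each region shares bases with an H3K4me3 region that holds the start. That H3K4me3 began at a median of -1461.5 bp for the upstream regions and reached a median of 4218 bp for the downstream ones. The regions over the start ran from a median of -806 bp to a median of 1073 bp.

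Coverage of the 406 regions therefore had 2 peaks with a dip at the start. It was 46.8% at -600 bp, 32.3% at the start and 44.1% at 500 bp downstream. H3K4me3 had no such dip: it covers the start by the way the 406 were chosen, and it covered 90.6% to 100% of them within 300 bp on each side. The dip was also present in the 237 oriented regions of 600 to 1000 bp, with 49.4% at -500 bp, 22.8% at the start and 35.4% at 500 bp. Joining succinyllysine regions less than 1000 bp apart closes part of the dip by construction, and 45.7% of the oriented regions then covered the start.

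**Figure D3:**
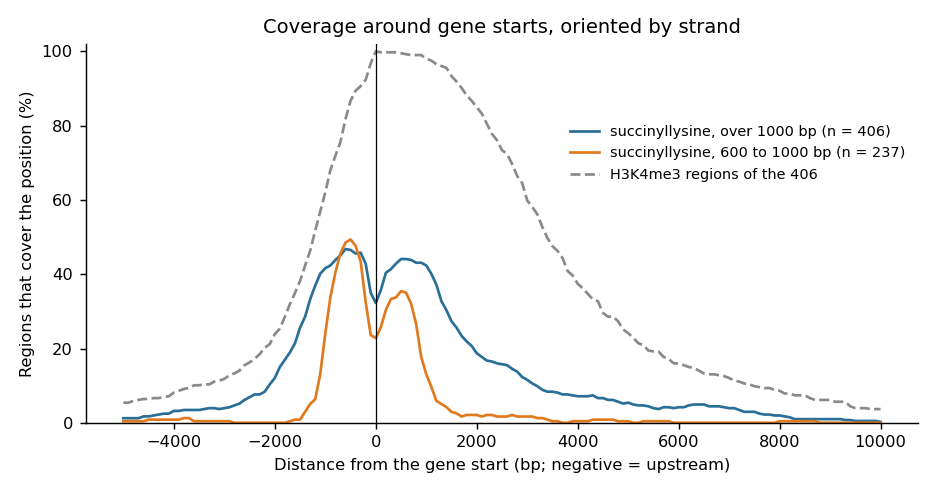
Share of regions (%) that cover each position around the gene start (bp, negative upstream), for 406 wide succinyllysine regions, 237 of 600 to 1000 bp, and the H3K4me3 regions of the 406. Both succinyllysine lines fall at the start (to 32.3% and 22.8%) while the H3K4me3 line does not.

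Spills were mostly on the upstream side. Of 129 oriented regions that spilled on 1 side, 100 ran out upstream and 29 into the gene (22.5%, 15.6 to 30.7%). Of 37 such regions of 600 to 1000 bp, 3 ran into the gene (8.11%, 1.70 to 21.9%). The median spill of the wide regions was 500 bp upstream and 600 bp into the gene. Of the 70 at an edge, 53 were at the upstream edge, 14 at the downstream edge and 3 at both. The H3K4me3 regions themselves were lopsided, with a median reach from -1244 bp to 3380 bp. Its part in the side of the spills was not tested. Regions inside H3K4me3 were, by contrast, downstream of the start in 106 cases, over it in 55 and upstream in 33.

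Single genes show these forms. At Fos, the serum-induced AP-1 subunit, 2900 bp of succinyllysine ran from -3089 to -190 bp, while H3K4me3 ran from -2289 to 1910 bp. At Ier3, a stress-induced survival gene, it ran from -1412 to -113 bp, and 300 bp of this was upstream of H3K4me3. Both regions thus began beyond the upstream end of H3K4me3 and stopped short of the start. Sqstm1, which encodes the autophagy receptor p62, had the longest spill among the listed genes whose oriented region stopped upstream of the start. Its 4200 bp ran from -4280 to -81 bp, with 3000 bp upstream of H3K4me3.

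Genes with succinyllysine on the transcribed side differed from these. Cdkn1b encodes p27, a brake on the cyclin-dependent kinases. Its region ran from 100 to 8299 bp and ended on the same base as H3K4me3. Mmp14, a membrane-bound collagenase, had 3300 bp from 3 to 3302 bp, although its H3K4me3 reached upstream to -6397 bp. Prrx1, a homeobox factor of limb mesenchyme, had succinyllysine from -50 to 6849 bp in H3K4me3 from -1750 to 7449 bp. Fosl2, another AP-1 subunit, had 2 regions in 1 H3K4me3 region, 2600 bp from -4071 to -1472 bp and 3400 bp over the start from -571 to 2828 bp.

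**Figure D4:**
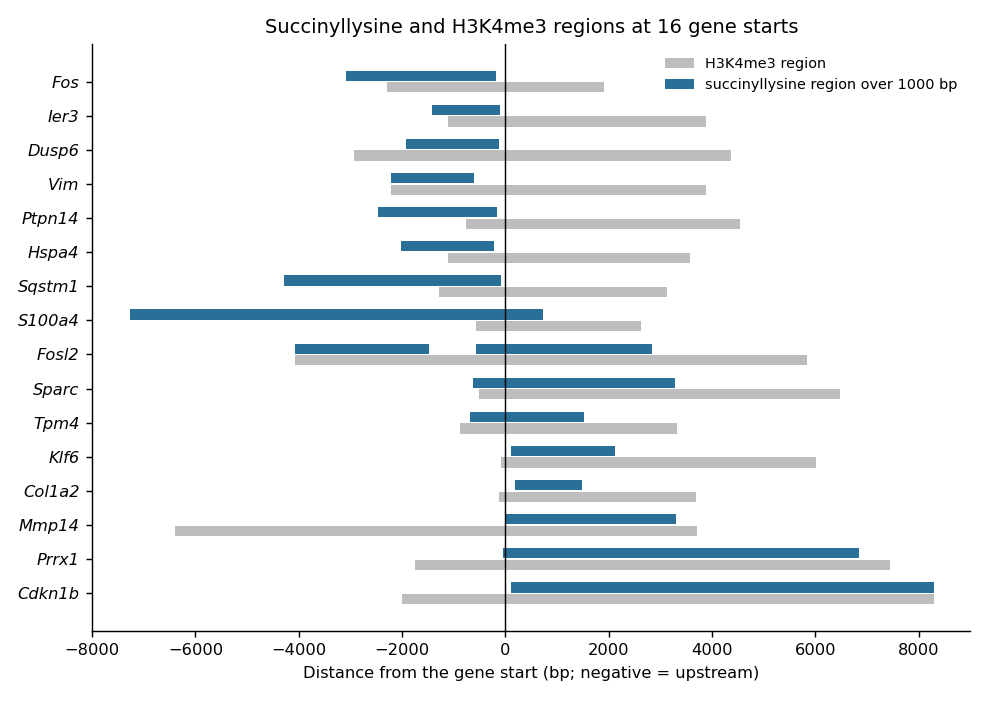
Succinyllysine regions over 1000 bp (blue) and their H3K4me3 regions (grey) at 16 gene starts, drawn to scale against distance from the start (bp, negative upstream); the genes were chosen to show each form. From Fos to Sqstm1 the blue bars end before the start, from S100a4 to Tpm4 at least 1 bar covers it, and from Klf6 down they lie at or beyond it, apart from the first 50 bp at Prrx1. The 2 regions at Sparc abut.

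Some starts had succinyllysine on each side and none on the start. Among starts with known strand, 31 genes had a start in a gap between 2 succinyllysine regions that touched the same H3K4me3 region, at least 1 of them over 1000 bp. There were 31 such gaps, and in 18 both regions were over 1000 bp. The gaps had a median of 400 bp (interquartile range 250 to 600 bp), 21 of them of at most 500 bp. At Tubb5, a beta-tubulin, regions of 1100 and 2700 bp stood 200 bp apart. At Lmna, which encodes the nuclear lamins A and C, 1800 and 6300 bp stood 500 bp apart, and at Pfn1, the actin-binding profilin, 1100 and 2800 bp did. Atf4, a transcription factor of the integrated stress response, had 900 and 1900 bp with 300 bp between. Serpinh1, the collagen chaperone HSP47, had 1400 and 2500 bp with 600 bp between. Longer gaps were 700 bp at Gabarap, 2800 bp at Rnh1 and at Zfp36, and 3200 to 7900 bp at genes of the HoxA and HoxD clusters. Lmna, Gabarap and Rnh1 were chosen for this account after their values were seen.

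Protein-coding genes with a wide region within 1000 bp of a start numbered 548 of 21887 (2.5%). Among the 12293 genes with H3K4me3 there, 545 had one (4.43%). Any succinyllysine region, of whatever width, was near the start of 1104 genes (5.04%). A single gene was near 453 of the wide regions and 72 had several, at most 3. The groups below are read against 2.5% and 4.43%, and their genes were put on the lists with earlier results of these data known. Of 813 listed genes, 80 had a wide region, and 48 of these could be oriented: the widest region near a start lay upstream in 20, over the start in 18 and downstream in 10. Of the 48, 12 had further wide regions for which theirs was the nearest start, so these sides do not describe all succinyllysine at a gene. Up to 5 genes per list were named by width; any further one, such as Ier3, Ccn1, Dusp6 and Vim, was chosen after its values were seen.

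Immediate-early and growth response genes, which serum and growth factors switch on within minutes, had wide regions at 11 of 40 (27.5%, 14.6 to 43.9%), all 40 with H3K4me3. Of the 8 with known orientation, 5 had this region upstream. Besides Fos and Ier3 these were Ccn1, a matrix-bound growth regulator (-1915 to -116 bp), Dusp6, a phosphatase that inactivates ERK (-1930 to -131 bp), and Zfp36, which destabilises AU-rich messages (-1972 to -173 bp). These 5 regions ended between -190 and -113 bp. Klf6, a zinc finger factor, and Nr4a2, an orphan nuclear receptor, had theirs downstream, from 112 and from 3 bp.

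Nr4a1, a related receptor, had 4000 bp (chr15:101262701-101266700) of which 17.5% was H3K4me3, and Jund had 2100 bp with 33.3% in H3K4me3. Strand was not assigned for either gene. Trib1 had 1700 bp. No succinyllysine region lay near a start of Fosl1 or Sgk1, although their H3K4me3 regions were 10300 and 8000 bp wide.

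Actin cytoskeleton genes had wide regions at 11 of 40 (27.5%, 14.6 to 43.9%). Capg, a filament-capping protein, had 4400 bp that bridged 2 H3K4me3 regions. Actb, cytoplasmic actin, had 3600 bp (chr5:142906801-142910400) of which 38.9% was H3K4me3, while Actg1, its close relative, had 1600 bp inside H3K4me3 from -1705 to -106 bp. The calponin gene Cnn2, the tropomyosin gene Tpm4 and the caldesmon gene Cald1 had regions of 2100, 2200 and 1900 bp over the start. Tagln2 and Myl12a, a transgelin and a myosin light chain, had theirs inside the gene, from 855 and 433 bp. Tpm1 and Myh9 had H3K4me3 of 11300 and 9200 bp and no succinyllysine near a start.

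Extracellular matrix and fibroblast genes had wide regions at 9 of 50 (18.0%, 8.58 to 31.4%), and 7 further genes had another succinyllysine region. S100a4, a calcium-binding protein of motile fibroblasts, came first with 8000 bp from -7269 to 730 bp. Only 3200 bp of H3K4me3 lay there, from -569 to 2630 bp. Loxl1 and Lox, which cross-link elastin and collagen, had 4500 and 1900 bp. Sparc, a collagen-binding glycoprotein, had 2400 bp over the start and 1500 bp abutting it. Vim, the intermediate filament protein of mesenchyme, had 1600 bp from -2210 to -611 bp, at the upstream edge.

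Collagen genes were not alike. Col1a2 had 1300 bp from 183 to 1482 bp, whereas Col1a1, whose product forms the same fibre, had H3K4me3 of 7800 bp and no succinyllysine near a start. Timp2, a metalloproteinase inhibitor, was like Col1a1 in this, with 7800 bp of H3K4me3. Fn1, fibronectin, had 1300 bp at an edge.

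Heat shock and protein folding genes had wide regions at 10 of 35 (28.6%, 14.6 to 46.3%). The cytosolic chaperone genes Hspa8, Hspa4 and Hspa1b had 2600, 1800 and 1500 bp, and the mitochondrial Hspa9 had 1800 bp. Hspa4 had its region from -2021 to -222 bp, with 900 bp upstream of H3K4me3. Ubb, a polyubiquitin gene, had 1100 bp from -1170 to -71 bp. Atf4 had 1900 bp from 217 to 2116 bp. The region of 1200 bp near Ddit3, the stress factor CHOP, overlapped Mbd6 and was nearest to the start of that gene. Hsf1 and Hsp90ab1, with H3K4me3 of 7400 and 6700 bp, had no succinyllysine near a start.

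Spliceosome and RNA-binding genes had wide regions at 9 of 40 (22.5%, 10.8 to 38.5%), with a median width of 1200 bp. Ptbp1, a splicing repressor, had 3200 bp, Hnrnpl had 2600 bp and Pcbp1, a poly(C)-binding protein, had 2500 bp over the start and 1600 bp abutting it upstream. Hnrnpu had 1200 bp from 15 bp downstream, and Snrpc, a protein of the U1 particle, had 1300 bp from -1386 to -87 bp. Srsf11 and Srsf2 had H3K4me3 of 9900 and 9700 bp without succinyllysine near a start.

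Hox genes had wide regions at 6 of 39 (15.4%, 5.86 to 30.5%), and all 6 regions were contained in H3K4me3. They belonged to the 5′ ends of 2 clusters, which pattern distal limb and posterior body: Hoxa9 (5000 bp), Hoxa10 (4100 bp) and Hoxa11 (4600 bp), and Hoxd10 (1200 bp), Hoxd11 (1700 bp) and Hoxd13 (4600 bp). A further wide region of 1100 bp lay 1772 to 2871 bp downstream of the Hoxa6 start, outside the window. With a window of 2500 bp the share was 20.5%. H3K27me3 was near a start of 22 of the 39 genes, and regions that touch it were left out by the choice. Which Hox genes appear thus depends in part on the window and on the choice of regions. The region near Hoxd13 lay between it and Evx2, and the Hox starts are so close together that 1 region can be counted for a gene next to the one it covers. Hoxd12 and Hoxd9, on the same 31100 bp of H3K4me3 as Hoxd10 and Hoxd11, had no succinyllysine near a start.

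Cell cycle and p53 genes had 5 of 35 (14.3%, 4.81 to 30.3%), and these 5 were also contained in H3K4me3. They were 3 genes of cyclin-dependent kinase inhibitors, the kinase gene Cdk4 (1400 bp from -34 to 1365 bp) and Trp53 (1100 bp, also near a start of Wrap53). Besides Cdkn1b, Cdkn2c had 2000 bp from -1428 to 571 bp and Cdkn2a had 1800 bp from -2108 to -309 bp of the nearest of its starts. Another start of Cdkn2a also had a wide region upstream, 1700 bp from -2181 to -482 bp. Cdkn2c had 2 further wide regions downstream, of 1900 and 2400 bp. Cdk6 had H3K4me3 and no succinyllysine near a start. Bbc3, a p53-induced cell death gene, had none within 1000 bp of its start, but 2400 bp lay on its H3K4me3 from 1270 to 3669 bp downstream (chr7:16311701-16314100).

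Hippo pathway genes had 3 of 22 (13.6%, 2.91 to 34.9%). Ptpn14, a phosphatase that restrains YAP, had 2300 bp from -2467 to -168 bp, of which 1700 bp was upstream of H3K4me3. Lats2, the kinase that phosphorylates YAP, had 1800 bp upstream (-1977 to -178 bp) and another 1200 bp over the start (-77 to 1122 bp). Amotl2, an angiomotin, had 1900 bp over the start. The interval of the Hippo list includes the 4.43% of all genes with H3K4me3. TGF-beta and Smad genes had 2 of 30 (6.67%, 0.818 to 22.1%), Id3, an inhibitor of basic helix-loop-helix factors (2800 bp), and Tgif1, a Smad corepressor (1600 bp). The interval of the TGF-beta list includes 2.5% and 4.43%. Smad7 and Inhba had no succinyllysine near a start, with H3K4me3 of 15300 and 10900 bp, although a wide region of 2800 bp overlapped Smad7 further away.

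Translation was represented by 2 lists. Of translation factors 3 of 31 (9.68%, 2.04 to 25.8%) had a region near a start, Eef1g with 3800 bp, Eif1a with 1600 bp and Eif6 with 1200 bp. The region near Eef1g overlapped Tut1 and not Eef1g. The region near Eif6 overlapped BC029722 and Mmp24, not Eif6, and was nearest to the start of BC029722. Eef1d and Eef2 had no succinyllysine near a start. Of 79 ribosomal protein genes 4 (5.06%, 1.40 to 12.5%) had one, Rpl10, Rpl13a, Rpsa and Rpl27a, at 1100 to 1500 bp. The intervals of both lists include the 4.43% of all genes with H3K4me3. Many ribosomal proteins also have processed copies, and the sources used here do not say how reads matching several places were treated.

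Wide regions at metabolic genes were not set apart in number from those at all genes. None of the 28 genes of the tricarboxylic acid cycle and succinate dehydrogenase had one (interval 0 to 12.3%), although all 28 had H3K4me3, and 3 had another succinyllysine region. Of 32 glycolysis and HIF target genes only Aldoa, an aldolase, had one (1400 bp from -453 to 946 bp), and of 48 oxidative phosphorylation genes only Atp5g2, a subunit of ATP synthase (2200 bp). These counts of 0, 1 and 1 have intervals that include 2.5% and 4.43%. Pkm, Hif1a, Sdha, Cyc1 and Ndufb10 had H3K4me3 and no succinyllysine near a start.

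Chromatin and acylation enzymes had 3 of 45 (6.67%, 1.40 to 18.3%): Brd2, an acetyl-lysine reader (1400 bp), Kat5, a histone acetyltransferase (1300 bp), and Kdm5a, an H3K4me3 demethylase (1100 bp, overlapping Ccdc77 and nearest to the start of that gene). The interval of this list includes 2.5% and 4.43%. Setd1b and Kmt2a, both H3K4 methyltransferases, had no succinyllysine near a start. Of 64 replication-dependent histone genes 1 had a wide region (1.56%, 0.0396 to 8.40%), H4c14 with 1900 bp, and 14 others had another succinyllysine region. The interval of the histone list also includes 2.5% and 4.43%. Histone genes are near-identical copies in clusters, so a region there is less surely placed. Among 60 developmental transcription factors outside the Hox clusters, Prrx1 alone had one (1.67%, 0.0422 to 8.94%), 39 had H3K4me3 and 30 had H3K27me3. Of those with H3K4me3 the share was 2.56%. The interval includes 2.5% and 4.43%, and regions that touch H3K27me3 were left out by the choice. Lhx2 had H3K4me3 of 8300 bp and no succinyllysine near a start.

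**Figure D5:**
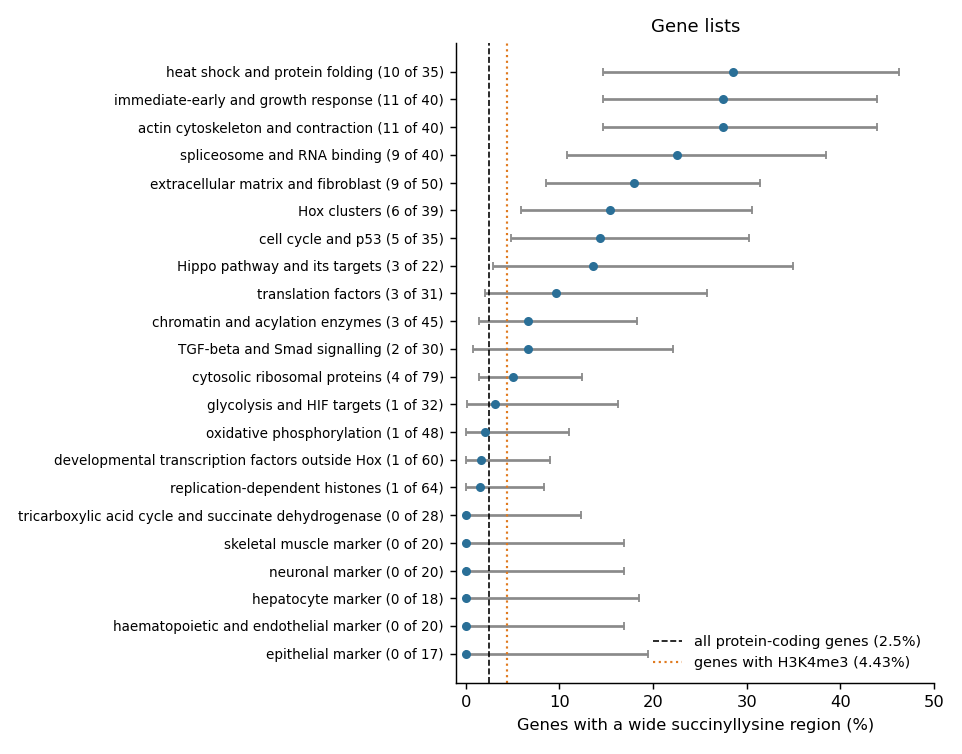
Share of the genes of each list (%, points, with exact 95% intervals) that have a wide succinyllysine region on H3K4me3 within 1000 bp of a start, with the shares of all protein-coding genes (2.5%, dashed) and of genes with H3K4me3 (4.43%, dotted). Points are shares of all genes of a list, with or without H3K4me3. Heat shock, immediate-early and actin genes stand at the top (28.6%, 27.5% and 27.5%), and 6 lists have none.

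The fibroblast label was checked against cell type markers. Of 10 fibroblast markers, 9 had H3K4me3, 4 had a wide succinyllysine region and 0 had H3K27me3 near a start. Of 95 markers of epithelium, blood and endothelium, neurons, hepatocytes and skeletal muscle, 19 had H3K4me3, 0 had a wide region and 27 had H3K27me3. Of all 21887 protein-coding genes, 12293 had H3K4me3 near a start and 2.5% had a wide region. The share with H3K27me3 was not counted over all genes. The H3K27me3 counts of these markers and of the lists above therefore have no background to be read against, and they are no check of the label. The interval of each of these marker lists includes 2.5% and 4.43%, and regions that touch H3K27me3 were left out by the choice. The count of 0 therefore does not set these markers apart. Markers without succinyllysine near a start were chosen by the width of their H3K4me3, so its absence there is no result. They included Krt19 and Epcam (epithelium), Kdr (endothelium), Tubb3 and Map2 (neurons), Apoa2 and Cyp3a11 (liver) and Actn3 (muscle). Their H3K4me3 regions were between 400 and 3400 bp wide. Of the 20 skeletal muscle markers, 1 had another succinyllysine region.

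Of 1005 microRNA hairpins, 15 (1.49%) lay in a wide region, each in a region of its own, and 158 lay in H3K4me3. In 11 the region was contained in H3K4me3 and in 4 it spilled. Mir21a, an abundant microRNA of growing and fibrotic cells, lay in 4000 bp at an edge of H3K4me3 (chr11:86582801-86586800). The next wide region began 400 bp further on and was the 7400 bp over Vmp1, the gene whose last part overlaps the Mir21a transcript. Mir199a-1 and Mir199a-2, microRNAs of mesenchyme that yield the same mature sequences from chromosomes 9 and 1, lay in 1400 and 3600 bp, both at an edge.

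Mir125b-1 lay in 6400 bp inside H3K4me3 and Mirlet7i in 1200 bp at an edge. Mir196b lay in the 5000 bp counted above at Hoxa9. Mir92b (2500 bp, spilling) and Mir574 (1200 bp, inside) complete the set shown above. The 28 mature entries of the 15 hairpins held 26 different sequences with 26 different seeds, so no seed was shared apart from those of the 2 miR-199a copies. The seeds of miR-196b-5p and let-7i-5p hold the same 6 letters, AGGUAG, 1 base apart.

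Promoters in wide regions were less rich in CpG than other promoters with H3K4me3. Over the 300 bases from 250 before to 50 after the start, the 338 protein-coding promoters that overlapped a wide region had a median of 19 CpG (interquartile range 12 to 27) and 59.7% G and C. The 10942 with H3K4me3 and no succinyllysine had 22 CpG (15 to 30) and 62.3%, and all 21238 had 13 CpG (4 to 24) and 56.3%. The ranges overlap for the most part.

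Motifs were searched by exact letters on both strands of the same windows. TATAAA was found in 9.47% (6.57 to 13.1%) of promoters in wide regions, 5.97% of those with H3K4me3 alone and 12.6% of all. TGACGT, the core of the cyclic AMP response element, was found in 16.0% (12.2 to 20.3%), 12.0% and 8.48%. The AP-1 site TGACTCA was found in 4.44% (2.50 to 7.21%), 2.93% and 4.66%. CCAAT, bound by NF-Y, was found in 32.5% (27.6 to 37.8%), 38.4% and 38.2%. The interval in wide regions lay above the share of promoters with H3K4me3 alone for TATAAA and below it for CCAAT, and for TGACTCA it included it. For TGACGT its lower limit, 12.2%, was next to the shares of promoters with H3K4me3 alone (12.0%) and of all promoters with H3K4me3 (12.3%).

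For the remaining motifs, with shares in the same order, the interval included the share of promoters with H3K4me3 alone. GGGCGG was found in 67.2% (61.9 to 72.1%), 69.4% and 46.2%. CACGTG, the E-box of Myc, was found in 11.2% (8.08 to 15.1%), 10.2% and 7.84%, and CCGGAA, the ETS core, in 29.6% (24.8 to 34.8%), 29.3% and 18.7%. The serum response element was found in 2.37% (1.03 to 4.61%), 1.11% and 1.53%. These matches describe letters in a window and say nothing of binding.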

How the data were processed

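The 16 samples were ChIP-seq and input libraries from 2 fibroblast lines. The values that the authors deposited are other than read counts: they are start and end positions, with 1 list of regions per antibody. Reads were aligned with Bowtie2 2.2.3 to mm10, per the submitters' processing notes. Not given in the sources used here: the caller of the regions, its cut-off, the role of the input and any pooling. Depth is unknown. All starts have 01 and all ends 00 as last digits, a 100 bp grid of 1-based inclusive positions.

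Gene starts came from the RefSeq promoter table of GRCm38.p6, which gave strand for 17492 of 21887 protein-coding genes; for the others either outer end counted as a start. Overlap needed 1 bp. Scripts used Python 3.11, numpy 2.4.6, pandas 2.3.3, scipy 1.17.1 and matplotlib 3.10.9, and were tested on simulated data.

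The regions, 22 gene lists and alternatives were chosen with earlier results of these data known. One listed histone name had no match. Named genes are the 10 widest regions, the 4 widest of each position, up to 5 genes per list with the widest such regions, and up to 2 genes per list without succinyllysine at the widest H3K4me3; genes named beyond it, including further list genes and microRNAs, were chosen after their values were seen. Some genes that the rule names are left out here.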

Additional observations from a re-analysis of the deposited data

How the results depend on the processing

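Of the main counts, shares and medians, 22 values under the alternatives stayed within 1.5 times the main count or within the interval of the main value; 14 moved and 1 changed sign. With width over 1500 bp there were 514 regions, and over 2000 bp 316. The share inside H3K4me3 (33.6%) was 43.5% without an edge margin, 27.1% with a margin of 500 bp, 41.4% with H3K4me3 regions less than 1000 bp apart joined and 23.1% over 2000 bp. Over 2000 bp the share spilling was 55.7%, the median share of a region's bases inside H3K4me3 fell from 100% to 78.0%, the median reach past the start rose from 1181 to 2638.5 bp, and 41.5% of oriented regions covered the start. The share near a start (58.3%) was 53.4% with a window of 500 bp, 65.4% with 2500 bp and 68.0% with all genes in the table. With succinyllysine regions less than 1000 bp apart joined, 45.7% of oriented regions covered the start, against 32.3%. The median CpG of promoters in wide regions was 6 above that of all promoters and 3 below that of promoters in H3K4me3, a difference of -3. Added after the data were seen were the joining of abutting regions, the removal of H3K4me3 regions with a noncoding start or a gene end of unknown strand, and all alternatives for the share covering the start; under the first 2, and with exactly 1 start, the share of spills into the gene was 19.2% to 22.9%. The alternatives change which regions, starts or genes are counted, how positions are classed or which promoters are compared. The cause of the changes in value was not tested. No paired analysis was possible because no list gives a value for a single sample, and for the same reason no replicate could be left out. Depth sets which regions are listed and is unknown.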
